A study of Rattus norvegicus with 29 samples.

Results

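The cluster of miR-322, miR-503, miR-351, miR-542 and miR-450a was examined in plasma of 29 rats. Its members were chosen by name, as the rows of the count table with the stem miR-322, miR-503, miR-351, miR-542 or miR-450a on either arm. This gave 10 of 754 rows, and all 10 passed the filter on low counts that 751 rows passed. One of the 10 rows joined miR-450a-5p with miR-450b-5p, so that these are given as 1 value. miR-450b-3p comes from the same locus but has another stem and was kept outside the count of members. The cluster was singled out because its levels had differed between UCLA and the other sites in these rats, so its site differences, counts of calls included, are a description from which nothing is read.

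The rats were adult male Sprague-Dawley rats, studied at UEF, Monash and UCLA. Each rat had lateral fluid-percussion injury, which delivers a pressure pulse to the exposed dura and models closed-head TBI, or a sham operation without the pulse. Tail vein blood was drawn 48 h after surgery, and each rat gave 1 small RNA library of its EDTA plasma. TBI rats were assigned months later by video-EEG to a group with epilepsy (TBI+) or without (TBI−). UEF gave 4 sham-operated experimental controls, 4 TBI− and 4 TBI+ rats, Monash 3, 3 and 2, and UCLA 3, 3 and 3. A site difference cannot be told apart from anything else that differed between the centers. In plasma, more releasing cells and more release per cell cannot be told apart either.

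MicroRNAs are cut from hairpin precursors, and each hairpin can give a mature strand from its 5p and its 3p arm. The bases near the 5′ end of a strand, the seed, largely set which mRNAs it represses. In rat, miR-322 is the counterpart of human miR-424, and miR-322 and miR-503 belong to the extended miR-15/16 family, which is known for lowering cyclins and other cell cycle genes. miR-351 has the seed of the miR-125 family. The cluster is known for its part in cell cycle exit during muscle differentiation.

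The RefSeq annotation of the assembly GRCr8 places 6 hairpins of the cluster on the minus strand of chromosome X within 5309 bases. This assembly is newer than the Rnor_6.0 genome of the deposited counts. In the direction of transcription the order is Mir322 (chrX:137726147-137726241), Mir503 (chrX:137725856-137725926), Mir351 (chrX:137725116-137725196), Mir542 (chrX:137722176-137722254), Mir450b-1 (chrX:137721078-137721146) and Mir450a1 (chrX:137720933-137721023). The first 3 lie within 1126 bases and overlap a long non-coding RNA gene. A gap of 2861 bases separates Mir351 from Mir542.

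The strands that share a seed with miRNAs of other loci are shown first, because the levels of those seed mates are compared with the cluster. Bases 2 to 8 are in capitals, and all sequences are RefSeq entries of the same assembly.
miR-322-5p: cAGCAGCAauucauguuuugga
miR-503-5p: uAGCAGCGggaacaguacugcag
miR-16-5p: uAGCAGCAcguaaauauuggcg
miR-195-5p: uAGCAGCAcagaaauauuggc
miR-351-5p: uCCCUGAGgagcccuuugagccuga
miR-125b-5p: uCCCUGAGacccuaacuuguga
Of 693 mature sequences compared, 4 others had bases 2 to 8 of miR-322-5p, namely miR-15b-5p, miR-16-5p, miR-195-5p and miR-497-5p. miR-503-5p had the same bases 2 to 7 as these 4 and miR-322-5p, and differed from them at base 8. The seed of miR-351-5p was that of miR-125a-5p and miR-125b-5p. Beyond the seed the strands differed: 12 of 22 bases aligned from the 5′ end were identical between miR-322-5p and miR-16-5p, and 10 of 22 between miR-351-5p and miR-125b-5p.

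The 3p strands of miR-322, miR-503 and miR-351 are shown because their levels differed most between the sites. No other mature sequence compared had the same bases 2 to 8 as any of these 3 strands. At bases 2 to 7 miR-322-3p matched miR-218a-1-3p, whose level was not compared here.
miR-503-3p: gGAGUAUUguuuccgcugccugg
miR-351-3p: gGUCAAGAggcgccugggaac
miR-322-3p: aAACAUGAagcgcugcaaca
The joined row is shown because its 2 strands could hardly be counted apart. They were identical at 20 of 21 bases aligned from the 5′ end.
miR-450a-5p: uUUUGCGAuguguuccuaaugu
miR-450b-5p: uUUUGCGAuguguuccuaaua

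Total miRNA counts per rat ranged from 1162307 to 5223469. The libraries of 2 rats touch the results. UEF sham rat 3 had the highest total, miR-122-5p, a liver miRNA, took 55.1% of its counts, and its TMM normalization factor was 0.333. miR-122-5p also took 28.1, 36.9 and 41.3% in UEF sham rats 1, 2 and 4, against 0.634 to 2.68% in the UCLA rats. Shares of all counts are not corrected for such differences. UCLA TBI+ rat 1 had cluster levels unlike those of the other 8 UCLA rats. Over the miRNAs outside the cluster its profile had a mean Spearman correlation of 0.890 with the other UCLA rats and 0.910 with the Monash rats. UCLA TBI+ rats 2 and 3 had near-identical means, 0.888 and 0.903 for rat 2 and 0.892 and 0.907 for rat 3. Several values are therefore also given without one or the other.

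At UCLA the cluster took a larger part of the plasma miRNA counts. Its 10 rows summed to a median of 0.683% of all counts at UCLA (range 0.0907 to 0.967%, n = 9), against 0.170% at UEF (0.101 to 0.303%, n = 12) and 0.234% at Monash (0.180 to 0.293%, n = 8). The 8 UCLA rats other than TBI+ rat 1 started at 0.419% and did not overlap with the 20 rats of the other sites, whereas TBI+ rat 1, with 0.0907%, was below all 20. On the CPM scale, in which counts are set relative to the TMM-normalized library total, the summed level had a median of 7027 at UCLA, 1715 at UEF and 2076 at Monash. UEF sham rat 3 had the highest sum of the 20 UEF and Monash rats, 3873 CPM. Its share of all counts, 0.129%, was below the UEF median, so the rank of this rat depends on the scaling. miR-351-5p was the most abundant member at each site and made up 42.5% of the cluster's counts at UEF, 44.8% at Monash and 44.6% at UCLA on average. miR-503-3p made up 12.5% of them at UEF and 24.6% at UCLA, while miR-542-3p made up 13.9% at UEF and 4.91% at UCLA.

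**Figure D1:**
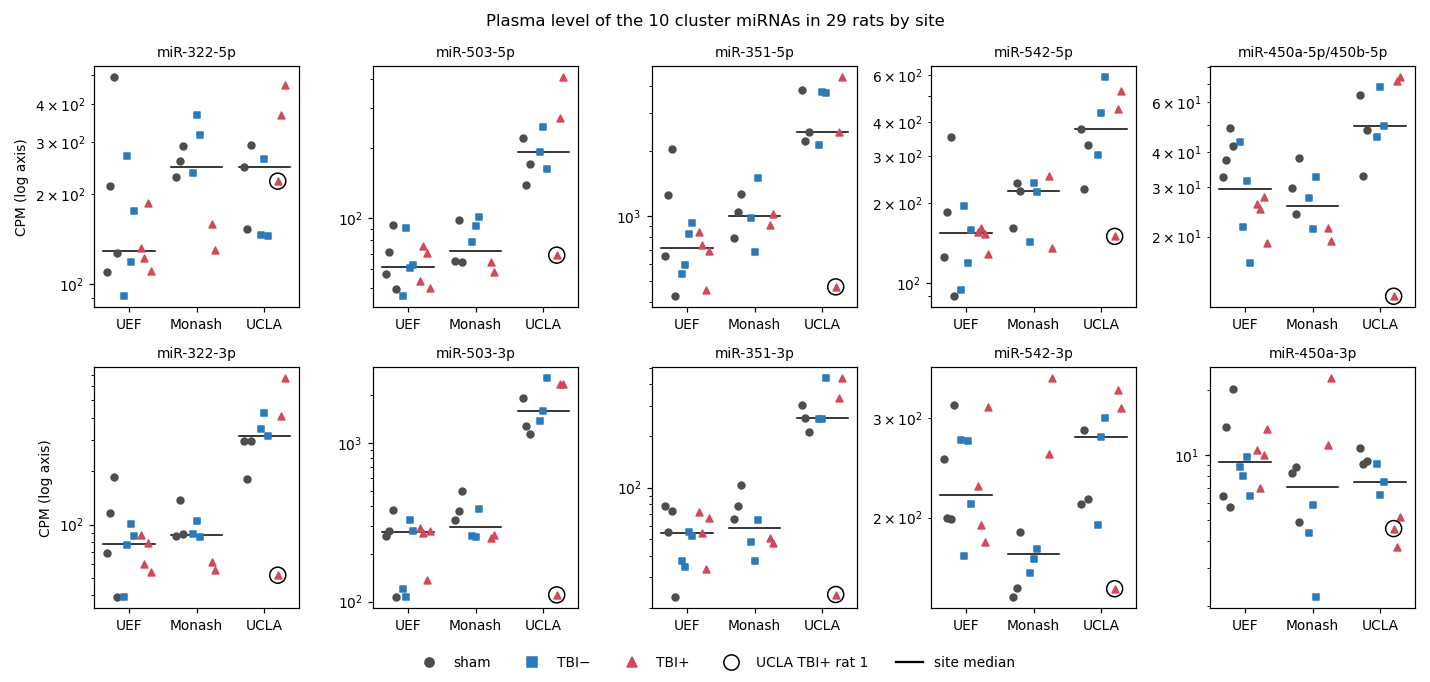
Level of each of the 10 cluster miRNAs in CPM (log axis, with its own range in each panel) by site, 1 point per rat, with the shape and color giving the injury group, lines at the site medians and a ring around UCLA TBI+ rat 1. For miR-503-3p, 8 UCLA rats lie between 1136 and 2551 CPM, above all UEF and Monash rats, and the ringed rat lies at 110 CPM.

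rno-miR-503-3p differed most between the sites. Its level was 107 to 380 CPM at UEF (median 275) and 251 to 495 CPM at Monash (median 296). The 9 UCLA rats had 1923, 1283 and 1136 CPM in the sham group, 1371, 1587 and 2551 CPM in the TBI− group, and 110, 2343 and 2343 CPM in the TBI+ group. All UCLA rats but TBI+ rat 1 were thus above all rats of UEF and Monash, and TBI+ rat 1 ranked 27 of 29. The ratio of the UCLA to the UEF median was 5.78, and the log2 fold change of UEF against UCLA was −2.79 (SE 0.33).

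rno-miR-503-5p, the strand of the same hairpin with the miR-15/16 type seed, was less abundant. It was at 45.8 to 93.1 CPM at UEF (median 61.6), 58.6 to 101 CPM at Monash (median 71.9) and 69.0 to 406 CPM at UCLA (median 193). The lowest value at UCLA was again that of TBI+ rat 1, and the other 8 UCLA rats started at 139 CPM, above all UEF and Monash rats. The ratio of the UCLA to the UEF median was 3.13.

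rno-miR-351-5p, with the miR-125 seed, had 427 to 2043 CPM at UEF (median 712), 685 to 1505 CPM at Monash (median 1000.3) and 471 to 4369 CPM at UCLA (median 2443). The highest UEF value was that of sham rat 3 and came close to the lowest of the other 8 UCLA rats, 2139 CPM. UCLA TBI+ rat 1, with 471 CPM, ranked 27 of 29. rno-miR-351-3p, its partner strand, was at 23.0 to 78.1 CPM at UEF, 37.6 to 104 CPM at Monash and 212 to 435 CPM in 8 of 9 UCLA rats, with 23.8 CPM in TBI+ rat 1. The ratios of the UCLA to the UEF median were 3.43 for miR-351-5p and 4.68 for miR-351-3p.

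For these 4 strands at least 8 of 9 UCLA rats were above all 20 UEF and Monash rats. Of all 751 miRNAs tested, 7 (0.932%) had this pattern, the 4 included. The other 3 were miR-149-5p, miR-455-3p and miR-455-5p, named after their values were seen. No miRNA had at least 8 UCLA rats below all rats of the other sites. Since the cluster was chosen for its site difference, nothing is read from the 4 against the 0.932%.

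The 2 strands of miR-322 differed from each other. rno-miR-322-3p was at 39.0 to 186 CPM at UEF (median 77.8), 55.3 to 138 CPM at Monash (median 87.2) and 51.9 to 668 CPM at UCLA (median 315). Here 7 of 9 UCLA rats were above all rats of the other sites, and 8 of 9 without UEF sham rat 3. rno-miR-322-5p, the strand with the full miR-15/16 seed, was at 91.3 to 492.8 CPM at UEF (median 130), 131 to 369 CPM at Monash (median 247) and 145 to 465 CPM at UCLA (median 246). No UCLA rat was above all others for this strand, and Monash and UCLA had nearly the same median.

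Farther down the locus, miR-542-5p had a median of 154 CPM at UEF, 220.8 CPM at Monash and 377 CPM at UCLA, with 5 of 9 UCLA rats above all others. The joined miR-450a-5p/450b-5p row had medians of 29.5, 25.8 and 49.6 CPM, also with 5 of 9 UCLA rats above all others. Without UEF sham rat 3, 7 of 9 UCLA rats were above all others for both. miR-542-3p, known for repressing the apoptosis inhibitor survivin, had medians of 220, 173 and 278 CPM, and its site ranges overlapped. miR-450a-3p, the least abundant member with 6 to 54 counts per rat, had medians of 9.26, 7.07 and 7.48 CPM, and its site ranges overlapped as well. miR-450b-3p, outside the members, was at 19.0 to 52.8 CPM at UEF and 22.8 to 124 CPM at UCLA, with 7 of 9 UCLA rats above all others. Its ratio of the UCLA to the UEF median was 2.25, against 2.44 for miR-542-5p and 1.90 for miR-322-5p.

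In the edgeR model with site and injury group, 7 of 10 members were past adjusted p = 0.05 in the direction of lower levels at UEF than at UCLA, where 4.13% of all 751 miRNAs were (9.32% in either direction). The members were chosen on this contrast, so the count is no test of the cluster and nothing is read from it against the share of all miRNAs. These 7 were both strands of miR-503 and miR-351, miR-322-3p, miR-542-5p and miR-450a-5p/450b-5p, and their log2 fold changes ran from −2.79 to −0.78. Values of the 3 others were −0.55 (SE 0.28) for miR-322-5p, −0.11 (SE 0.19) for miR-542-3p and 0.41 (SE 0.32) for miR-450a-3p. The median log2 fold change was −1.46 over the members and 0.07 over all miRNAs tested. Without UEF sham rat 3, miR-322-5p, with −0.76, was also past the threshold. Without UCLA TBI+ rat 1 the same 7 were, and miR-503-3p was at −2.97 on the log2 scale. Without UCLA TBI− rat 2, TBI+ rat 2 or TBI+ rat 3, 6 members remained past it, since miR-450a-5p/450b-5p was not.

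Between Monash and UCLA the same 7 members were past the threshold in the direction of lower levels at Monash, with 2.4% of all miRNAs, and this count is likewise a description only, since the difference of UCLA from both other sites chose the cluster. The median was −1.21 over the members on the log2 scale. miR-542-5p, with −0.91 (SE 0.27), was not past it without any 1 of 6 rats (Monash sham rats 1 and 3, TBI− rat 1 and TBI+ rat 2, and UCLA TBI− rats 2 and 3). Between UEF and Monash 0 of 10 were past it in either direction in edgeR and in DESeq2, with 9.99% of all miRNAs, and the log2 fold changes were −0.48 to 0.26. These 3 comparisons share rats and are not independent of each other. In TBI rats alone the log2 fold change of miR-503-3p between UEF and UCLA was −2.89, and in sham rats alone it was −2.53. For miR-322-3p these values were −2.31 and −1.37, and for miR-450a-5p/450b-5p −0.98 and −0.28.

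miRNAs of other loci with the same seeds were set beside the cluster in the same comparison. The miR-15/16 list held the 4 seed mates of miR-322-5p named above and miR-15a-5p, which was taken by its family name. miR-15a-5p was not among the sequence matches, and not every name of the count table had a RefSeq sequence. In this family miR-16-5p was at −0.47 (SE 0.25) on the log2 scale for UEF against UCLA, close to the −0.55 (SE 0.28) of miR-322-5p. miR-497-5p was at 0.76, and 0 of 5 miRNAs were past the threshold in edgeR, with 9.32% of all miRNAs in either direction. In sham rats alone miR-195-5p and miR-497-5p were at 1.53 and 1.62, and in TBI rats alone at −0.13 and 0.31. In the fit of all rats these 2 were at 0.40 and 0.76, and without UEF sham rat 3 at 0.12 and 0.37. With all rats miR-125a-5p and miR-125b-5p, which have the seed of miR-351-5p, were at 0.60 and 0.66, the opposite sign to miR-351-5p. Without UEF sham rat 3 miR-125a-5p and miR-125b-5p were at 0.49 and 0.44. With all rats 0 of 2 were past the threshold. With so few rows nothing is read from 0 of 5 and 0 of 2 against the share of all miRNAs. The seed mates are far more abundant. The 5 miR-15/16 miRNAs summed to a median of 213095 CPM at UCLA and the 2 miR-125 miRNAs to 15815 CPM, while miR-351-5p had a median of 2443 CPM there.

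Other miRNAs of chromosome X were also compared. Of 32 rows with X-linked stems, 1 passed the threshold for UEF against UCLA, miR-363-3p, with −0.66. Of all 751 miRNAs 9.32% passed it in either direction, and nothing is read from 1 of 32 against that share. The median of the 32 was 0.01 on the log2 scale. In UCLA TBI+ rat 1 these 32 rows summed to 91581 CPM, while the other 8 UCLA rats had at most 42850 CPM. The highest sum at Monash was 92677 CPM. The rows include miR-223-3p, which is also in the list of white cells and platelets given below.

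**Figure D2:**
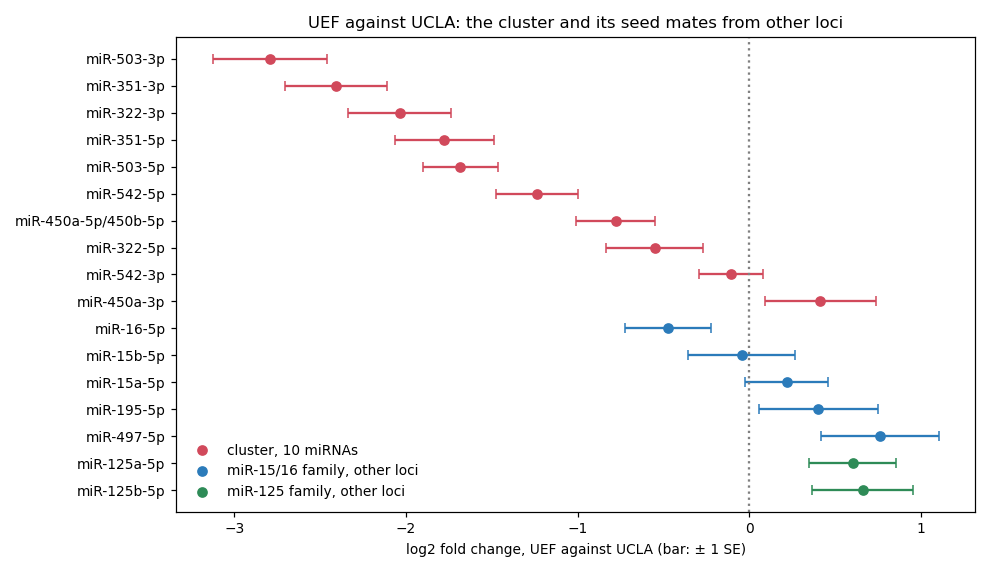
Log2 fold change of UEF against UCLA (x axis, bars ± 1 SE) from the edgeR model for the 10 cluster miRNAs and for 7 miRNAs of other loci that share a seed with miR-322-5p or miR-351-5p or belong to their families. The cluster runs from −2.79 for miR-503-3p to 0.41 for miR-450a-3p, and the 7 others lie between −0.47 and 0.76.

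Both arms of a hairpin are cut from the same precursor. The ratio of the 5p to the 3p counts needs no scaling by the total counts of a library, and what sets it in plasma was not tested. It was taken as log2 of (5p counts + 1)/(3p counts + 1). For miR-322 the mean was 1.07 ± 0.45 (SD, n = 12) at UEF, 1.46 ± 0.32 (n = 8) at Monash and −0.24 ± 0.97 (n = 9) at UCLA. The 5p strand exceeded the 3p strand in 12 of 12 UEF rats, 8 of 8 Monash rats and 1 of 9 UCLA rats. That 1 rat was TBI+ rat 1, with 4.25 times as many 5p as 3p counts (632 and 148). The other 8 UCLA rats had 0.424 to 0.985 times as many.

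For miR-503 the 3p strand exceeded the 5p strand in all 29 rats. The mean log2 ratio at UEF was −1.77 ± 0.70, while Monash had −2.05 ± 0.44 and UCLA −2.76 ± 0.89, where TBI+ rat 1 was at −0.67 and the other 8 between −3.96 and −2.53. For miR-351 the 5p strand was the more abundant in all 29 rats, with 15.1, 16.7 and 10.8 times the 3p counts on (geometric) average at UEF, Monash and UCLA. In miR-322, miR-503 and miR-351 the mean ratio was thus lowest at UCLA. The share of all hairpins with their lowest mean at UCLA was not counted, and nothing is read from this order. The miR-542 ratio had the other order, with means of −0.62 ± 0.77 at UEF, 0.04 ± 0.63 at Monash and 0.50 ± 0.42 at UCLA. For miR-450a and miR-450b together it was −0.49 ± 0.37, −0.74 ± 0.40 and −0.63 ± 0.46.

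**Figure D3:**
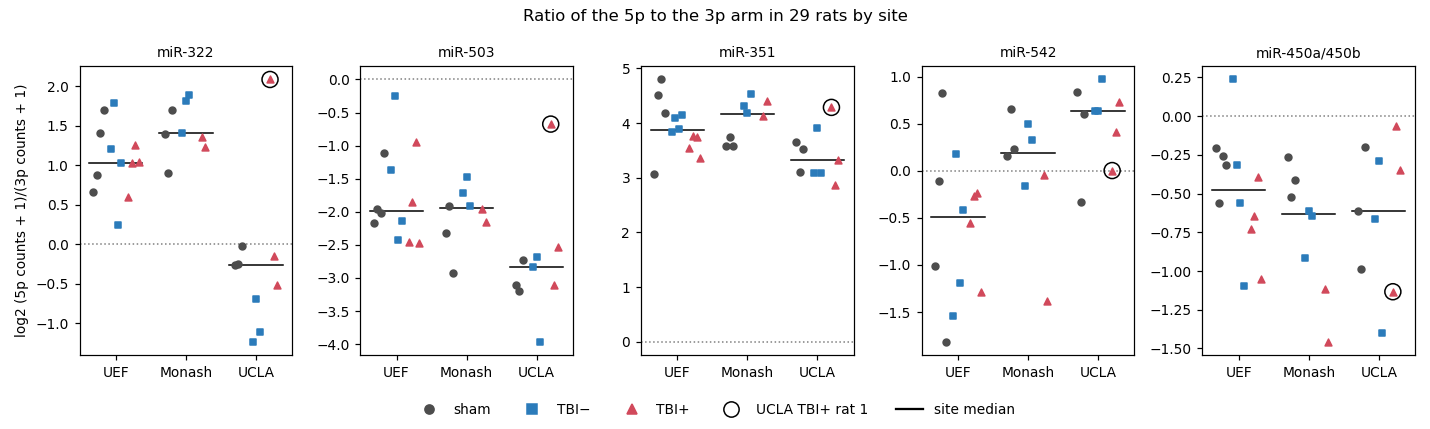
Log2 ratio of 5p to 3p counts (1 added to each) of the 5 hairpins by site, 1 point per rat, with lines at the site medians, a dotted line at equal arms and a ring around UCLA TBI+ rat 1. In the miR-322 panel all UEF and Monash rats lie above the dotted line and 8 of 9 UCLA rats below it.

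The effect of the injury was the comparison that the choice of the cluster did not use. In TBI rats against sham-operated experimental controls, with site in the model, 0 of 10 members passed the threshold in edgeR, while 1.2% of all miRNAs did. At an unadjusted p below 0.05 there were 83 of 751 miRNAs and none of the members, and DESeq2 gave 24 calls in all and none among the members. Log2 fold changes of the members were −0.31 to 0.15, with a median of −0.21 against 0.03 over all miRNAs.

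The lowest p belonged to miR-450a-5p/450b-5p. At UEF its level was 32.5, 37.4, 48.8 and 41.9 CPM in the 4 sham rats and 16.1 to 43.3 CPM (median 25.6) in the 8 TBI rats. At Monash it was 29.8, 24.0 and 38.2 CPM in sham rats and 27.5, 21.3, 32.6, 21.5 and 19.3 CPM in TBI rats, and at UCLA 63.5, 32.8 and 47.7 CPM in sham rats and 12.3 to 73.7 CPM in TBI rats. The groups overlapped at each site. The log2 fold change was −0.31 (SE 0.20, 95% interval −0.73 to 0.11, edgeR adjusted p = 0.642).

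For miR-503-3p the log2 fold change of TBI against sham was −0.15 (95% interval −0.74 to 0.44), and for miR-351-5p −0.29 (−0.81 to 0.23). Without UCLA TBI+ rat 1 miR-503-3p was at −0.035, and without UEF sham rat 3 miR-351-5p was at −0.060. With all rats the intervals do not exclude a decrease by 0.74 and 0.81 on the log2 scale. miR-322-5p was at −0.24 (−0.74 to 0.26) and moved to 0.04 without UEF sham rat 3, and miR-322-3p, at −0.19, moved to 0.01. Counts of the red cell miRNA miR-451-5p relative to miR-23a-3p, a measure of hemolysis, had a mean log2 ratio of −2.15 (range −3.05 to −0.87) in the 19 TBI rats and −2.86 (−3.57 to −1.33) in the 10 sham rats. With this ratio in the model no member passed the threshold either.

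TBI+ and TBI− rats did not differ detectably in the cluster. Of the members 0 of 10 passed the threshold in edgeR, as did 0.0% of all miRNAs. There were 18 of 751 miRNAs at an unadjusted p below 0.05, no member among them, and DESeq2 called 0. miR-450a-3p had the largest difference among the members, a log2 fold change of TBI+ against TBI− of 0.48 (SE 0.34, 95% interval −0.21 to 1.17, edgeR adjusted p = 0.998). At Monash its TBI+ rats had 11.1 and 22.6 CPM and its TBI− rats 4.37, 5.85 and 2.20 CPM, while at UCLA the order was the opposite, with 4.56, 3.76 and 5.14 CPM against 9.02, 6.51 and 7.48 CPM. Without Monash TBI+ rat 2 the value was 0.17, and without all Monash rats it was −0.11. For miR-503-3p it was −0.01 (−0.70 to 0.69), and for miR-322-5p −0.04 (−0.66 to 0.57).

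The TBI effect was also compared between the sites by an interaction term. Here 0 of 10 members passed the threshold, with 1.06% of all miRNAs, and adjusted p in edgeR was 0.565 to 0.816. The lowest belonged to miR-322-3p, whose log2 fold change of TBI against sham was −0.49 (SE 0.39) at UEF, −0.40 (SE 0.47) at Monash and 0.51 (SE 0.47) at UCLA. The values at UCLA were 296, 182 and 297 CPM in sham rats and 51.9 to 668 CPM in TBI rats. The arm ratios were tested with limma over 264 hairpins, of which 0.0% passed the threshold in TBI against sham and 0.0% in TBI+ against TBI−. At an unadjusted p below 0.05 there were 22 and 11 hairpins. The 5 hairpins of the cluster had log2 differences of −0.27 to 0.31 in TBI against sham (adjusted p in limma 0.655 to 0.980) and −0.27 to 0.32 in TBI+ against TBI− (0.979 to 0.990). The 0.32 was that of miR-322, which was at 0.036 without UCLA TBI+ rat 1.

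**Figure D4:**
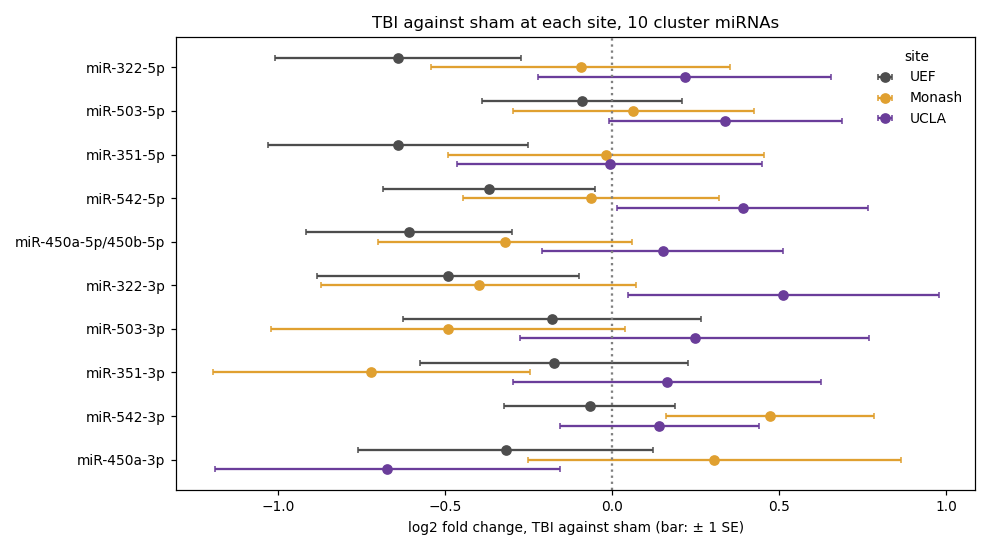
Log2 fold change of TBI against sham (x axis, bars ± 1 SE) at each site for the 10 cluster miRNAs, from the edgeR model with a site by injury term. Values lie between −0.72 for miR-351-3p at Monash and 0.51 for miR-322-3p at UCLA.

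Within the cluster the members did not all vary together. The mean of each of the 9 groups was taken out, and Spearman correlations were taken over the 29 rats. Between miR-503-3p and miR-351-3p, strands of neighboring hairpins, the correlation was 0.906. Between miR-503-5p and miR-322-5p, also of neighboring hairpins and with the same bases 2 to 7, it was 0.773. Between miR-503-5p and miR-322-3p, which differ at bases 2 to 7, it was 0.756. Between both strands of the miR-503 hairpin it was 0.337, and 0.091 without UCLA TBI+ rat 1. miR-542-3p had −0.317 with miR-503-5p, and −0.718 without that rat. The points share library depth and normalization, so these values are a description.

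The miRNAs whose level over the 29 rats was most like the cluster's were ranked by Spearman correlation with the mean of the 10 standardized log2 CPM values. They were miR-455-3p (0.930), miR-455-5p (0.914), miR-140-5p (0.882), miR-140-3p (0.815) and miR-450b-3p (0.795). miR-140 and miR-455 are known as miRNAs of cartilage, and miR-450b-3p comes from the locus itself. With the group means taken out the first 3 were miR-455-5p (0.851), miR-455-3p (0.776) and miR-140-5p (0.757). Without UCLA TBI+ rat 1 these 3 values were 0.798, 0.726 and 0.627.

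**Figure D5:**
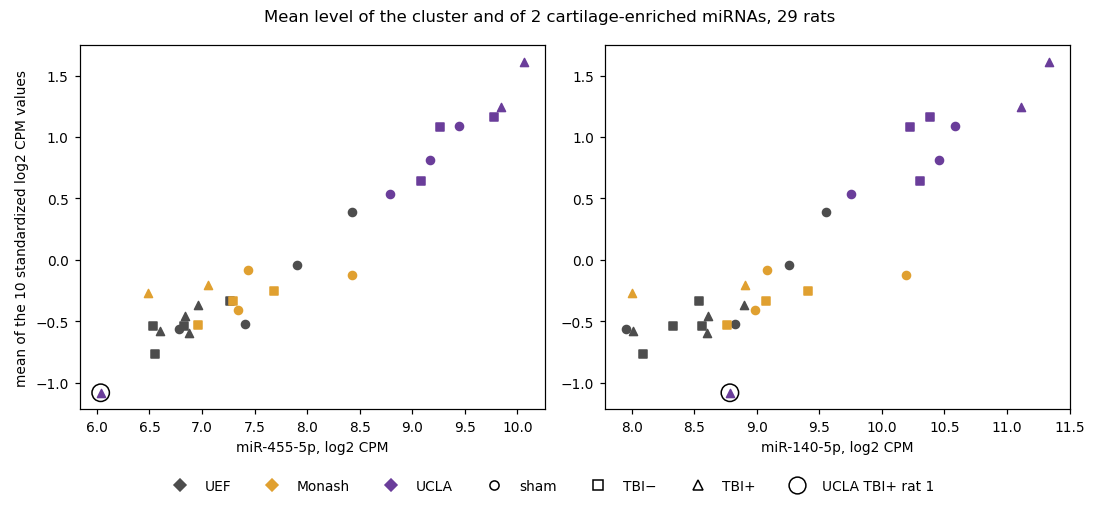
Mean of the standardized log2 CPM values of the 10 cluster miRNAs (y axis) against log2 CPM of miR-455-5p (left) and miR-140-5p (right), 1 point per rat with the color giving the site and the shape the injury group. UCLA TBI+ rat 1 (ring) is the lowest of 29 for the cluster and for miR-455-5p, and the other 8 UCLA rats are the highest for both.

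Markers of several cell types also differed between UEF and UCLA, some in the direction of the cluster and some in the opposite direction. The cartilage list, miR-140 and miR-455 with both arms, summed to a median of 44684 CPM at UCLA, 7987 CPM at UEF and 10560 CPM at Monash. UCLA TBI+ rat 1 had 10087 CPM. Of this list 4 of 4 were past the threshold as lower at UEF than at UCLA, with 4.13% of all miRNAs. The level of these strands was also the most like that of the cluster, which was chosen for its UCLA difference. Nothing is therefore read from this count. In the muscle list 3 of 3 were past the threshold as higher at UEF than at UCLA (5.19% of all miRNAs). Its median sum was 612 CPM at UCLA (range 267 to 1079), 2023 CPM at UEF (648 to 52703) and 5039 CPM at Monash (749 to 40984). In the liver list 2 of 2 and in the vessel list 2 of 4 were past the threshold as higher at UEF, with the same 5.19% of all miRNAs. The log2 fold changes of the vessel list were positive in 3 and negative in 1, at −0.21. In the list of red cells 0 of 5 and in that of white cells and platelets 0 of 4 were past the threshold (9.32% of all miRNAs in either direction). Their log2 fold changes of UEF against UCLA were negative in 5 of 5 and 4 of 4. In TBI+ rat 1 the list of white cells and platelets summed to 160677 CPM, the highest of the 29 rats, and that of red cells to 495235 CPM. The part of these cell types in the site difference of the cluster was not tested.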

How the data were processed

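Plasma of 29 rats was analysed. Per the methods of the study, the authors had RNA extracted from plasma and QIAseq miRNA libraries with unique molecular identifiers sequenced as a service, removed adapters with cutadapt, aligned the inserts by bowtie to Rnor_6.0 and assigned them to miRBase entries. The authors deposited raw counts per miRNA without normalization. Whether reads of 1 molecule were merged is not given in the sources used here. The 1 sequenced rat that the study excluded was not analysed here.

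Each rat was 1 library and 1 replicate. Counts were filtered with filterByExpr (minimum count 10), scaled by TMM and fitted with edgeR 4.0.16 (R 4.3.3) by the quasi-likelihood F test on injury group and site. TBI against sham was the mean of TBI− and TBI+ against sham. P-values were adjusted by Benjamini and Hochberg over the 751 miRNAs tested (754 for the interaction), with a threshold of 0.05. log2 CPM values used a prior count of 2. Arm ratios were fitted with limma 3.58.1 over 264 hairpins with a mean of at least 10 counts per arm. The fits were tested on simulated data. Sequences came from RefSeq tables, in which 674 of 754 names matched. Python 3.11.15, pandas 2.3.3 and matplotlib 3.10.9 were used elsewhere.

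The named miRNAs were the 10 members, their seed mates, the X-linked and cell type lists and the 5 miRNAs most like the cluster. The members and lists were chosen with earlier results of these data known. Alternatives were DESeq2 1.42.0, its size factors, scaling by total counts, other count filters, models without site, with the miR-451-5p to miR-23a-3p ratio or with the replicate number as a block, fits lacking 1 site, fits on the sham or on the TBI rats only, another count added to the arms, and each rat left out in turn. Miscounting between near-identical strands and counting error limit miR-450a and miR-450b.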

Additional observations from a re-analysis of the deposited data

Results flagged for a closer look

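Dixon's test for a stray sample was applied to 75 sets of 4 to 10 rats, in which chance marks about 1 in 20, and marked 5. In UEF TBI+ rat 3 miR-503-3p was at 136.8 CPM, far below the 272 to 292 CPM of the other 3 rats of its group. In UCLA TBI+ rat 1 the log2 arm ratio of miR-322 was 2.09, above that of all other UCLA rats, and that of miR-503 was −0.67. In Monash TBI+ rat 2 miR-450a-3p was at 22.6 CPM, the highest of 8 Monash rats, and the log2 arm ratio of miR-542 was −1.38, the lowest of them.

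miR-450a-3p was higher in every TBI+ than in every TBI− rat of Monash (difference of the mean log2 CPM 1.84, 2 and 3 rats) and lower in every TBI+ than in every TBI− rat of UCLA (−0.68, 3 and 3 rats). The difference between the sites was not tested. Of all 751 miRNAs, 136 (18.1%) had such opposite orders at 2 sites, as 1 of the 10 members did.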

How the results depend on the processing

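No setting brought a member past the threshold for TBI against sham, TBI+ against TBI− or the TBI effect by site. The count of calls over all miRNAs was less stable. For TBI against sham it was 9, and 24 with DESeq2, 17 with at least 10 counts in every rat, 4 with the replicate block, 4 with the miR-451-5p to miR-23a-3p ratio, 14 without site in the model, and 0, 21 and 14 without the UEF, Monash and UCLA rats (1 to 16 with each rat left out, the lowest without UEF sham rat 4 and the highest without Monash sham rat 2). For UEF against UCLA it was 70, and 46 with the block, 40 in TBI and 36 in sham rats alone (60 to 77). For UEF against Monash it was 75, and 33 with total counts, 31 with the block, 0 in TBI and 35 in sham rats alone (39 to 117, the lowest without Monash TBI− rat 3 and the highest without Monash TBI+ rat 2). For Monash against UCLA it was 41, and 23 in TBI and 21 in sham rats alone (25 to 59, the lowest without Monash sham rat 3). For the TBI effect by site it was 8, and 17 with DESeq2, 2 with its size factors, 15 with total counts, 3 with at least 10 counts in every rat, 0 with the block and 0 with the ratio (0 to 11, 0 without UCLA TBI+ rat 1 among others). The arm ratio of TBI against sham gave 0 (0 to 1), and TBI+ against TBI− gave 0 calls in every setting. In sham rats alone 3 members were past the threshold for UEF against UCLA and 0 for Monash against UCLA, in TBI rats alone 6 and 5, and with total counts miR-322-5p passed it for UEF against Monash. The cause of these shifts was not tested, but settings with rats left out hold fewer rats.

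Some uncalled log2 fold changes turned their sign, among them the 0.48 of miR-450a-3p for TBI+ against TBI−. With DESeq2 and with its size factors, miR-503-3p was at 0.0087 and 0.0086 for TBI+ against TBI−. With total counts, TBI against sham was 0.015 for miR-322-3p, 0.020 for miR-503-3p and 0.15 for miR-542-5p, and TBI+ against TBI− was 0.030 for miR-322-5p, 0.027 for miR-503-5p, 0.088 for miR-503-3p and 0.043 for miR-542-5p. With the replicate block, TBI+ against TBI− was 0.062 for miR-503-3p. With the miR-451-5p to miR-23a-3p ratio, TBI against sham was 0.023 for miR-503-3p and 0.0047 for miR-542-5p. Without the UEF rats, TBI against sham was 0.043 for miR-322-5p, 0.016 for miR-322-3p and 0.14 for miR-542-5p, and TBI+ against TBI− was 0.12 for miR-322-5p and −0.12 for miR-351-3p. Without the Monash rats, TBI+ against TBI− was 0.31 for miR-322-5p, 0.11 for miR-503-5p, 0.038 for miR-503-3p and −0.11 for miR-450a-3p, and without the UCLA rats 0.13 for miR-503-3p and 0.059 for miR-542-5p. Without site in the model, TBI against sham was 0.16 for miR-322-3p, 0.097 for miR-503-3p and 0.083 for miR-542-5p, and TBI+ against TBI− was 0.11 for miR-503-5p and −0.056 for miR-351-3p. With each rat left out, TBI against sham ran from −0.33 to 0.040 for miR-322-5p, −0.29 to 0.015 for miR-322-3p and −0.14 to 0.15 for miR-542-5p, and TBI+ against TBI− from −0.17 to 0.073 for miR-322-5p, −0.22 to 0.066 for miR-503-5p, −0.10 to 0.17 for miR-503-3p, −0.039 to 0.25 for miR-351-3p and −0.14 to 0.052 for miR-542-5p. The arm ratios of TBI against sham ran from −0.16 to 0.060 for miR-322, −0.047 to 0.16 for miR-351 and −0.30 to 0.015 for miR-542, and that of TBI+ against TBI− for miR-503 from −0.18 to 0.25.

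The replicate numbers did not pair the rats. Deviations from the group means correlated at −0.422 to 0.396 between rats of the same number (mean −0.016, 103 pairs), and 4 of 29 rats correlated best with a rat of their own number. Counts of 6 to 54 per rat limit miR-450a-3p most.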
